A study of Mus musculus with 65 samples.

Results

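The cells described here were progenitors of the ventral neural tube derived from HM1 mouse embryonic stem cells, a single line, and the genes described were 10 components of the Sonic hedgehog (Shh) pathway. These were Boc, Cdon, Gas1, Lrp2, Scube2, Smo, Sufu, Gli2, Gli3 and Disp1, chosen by name from the 25239 genes of the RNA sequencing table and followed through all 25 groups of day, SAG concentration and cell type. All 10 passed the minimum mean of 10 normalised reads that a gene needed to be tested.

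Cultures consisted on day 3 of neuromesodermal progenitors (NMPs), precursors shared by spinal cord and trunk mesoderm, and gave 3 libraries. From then on all cultures received retinoic acid, and SAG, an agonist of Smoothened that takes the place of the Shh ligand, was given at 0, 10, 100 or 500 nM. After fixation on day 4, 5 or 6, antibodies against transcription factors separated SOX2 positive cells into p3 (NKX2.2 positive, OLIG2 negative; from 100 and 500 nM), pMN (OLIG2 positive; from 100 and 500 nM), p2 (NKX6.1 and PAX6 positive; from 10 and 100 nM) and p0-1 (PAX6 positive, NKX6.1 negative; from 0 and 10 nM), listed from ventral to dorsal. For its accessibility sort the paper states that cells positive for both OLIG2 and NKX2.2 were left out of pMN. Replicates were independent differentiations of this line. The study describes sorting several types from 1 dish, so types of the same day and SAG concentration may share a culture. Of the 65 libraries, 16 came from day 4, 24 from day 5 and 22 from day 6; on days 5 and 6 together there were 11 of p3, 11 of pMN, 12 of p2 and 12 of p0-1, and means of those days are given ± SD over these numbers of libraries. Because p0-1 and p3 were never sorted at the same SAG concentration, and neither were p0-1 and pMN, cell type and SAG concentration cannot be told apart in those comparisons.

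Hedgehog signalling runs from a lipid-modified ligand to the Gli transcription factors. DISP1 releases the ligand from the cells that make it, and the secreted protein SCUBE2 helps to carry it away. At the receiving cell the coreceptors BOC, CDON and GAS1, and the endocytic receptor LRP2 (megalin), aid its binding to PTCH1, which otherwise holds SMO inactive. Active SMO relieves the hold of SUFU on the GLI proteins. GLI2 acts mainly as an activator and GLI3 mainly as a repressor when the signal is weak. Ptch1, Hhip and Gli1 are transcribed in response to the signal. In the neural tube the ligand comes from the notochord and floor plate, so ventral progenitors receive the most.

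Levels are normalised reads, the read count of a gene divided by 1 size factor per library. Reads counted in genes numbered 7615114 to 13484815 per library, which detected 9718 to 15963 genes. The only p3 library at 100 nM on day 4 (replicate 3) stood apart with 9718 detected genes, the fewest of all, and results that rest on it are also given without it. RNA of the genes used for sorting followed the labels: on days 5 and 6 Nkx2-2 lay between 121 and 426 normalised reads in p3 and was at 0 in all 12 p0-1 libraries, Olig2 was highest in pMN (mean 3574 ± 1320), and Nkx6-1 averaged 9.63 ± 21.3 in p0-1 against 362 ± 160 in p2. Cells sorted as p3 also carried transcripts of genes listed here as floor plate genes, of which the paper reports Foxa2 in p3 progenitors themselves. The summed level of 5 floor plate genes (Foxa2, Ntn1, Spon1, Lmx1b, Slit1) ranged from 5063 to 28360 normalised reads in p3, from 1255 to 4196 in pMN, from 1074 to 3779 in p2 and from 538 to 3067 in p0-1 on days 5 and 6. Because these are bulk samples, fewer cells of a type and less RNA per cell cannot be told apart.

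The upstream sequences of Scube2, Gli3 and Gas1 are shown first, since these were the members that limma called lower in the ventral types. These are the 250 bases before the annotated transcript start, from RefSeq on GRCm38.p6 (the build mm10 of the study), written 5′ to 3′ on the strand of the gene. Capitals mark GC boxes (GGGCGG, on either strand, at times overlapping each other) and, in Gas1, a CCAAT box.
Scube2, chr7:109865680-109865929, minus strand: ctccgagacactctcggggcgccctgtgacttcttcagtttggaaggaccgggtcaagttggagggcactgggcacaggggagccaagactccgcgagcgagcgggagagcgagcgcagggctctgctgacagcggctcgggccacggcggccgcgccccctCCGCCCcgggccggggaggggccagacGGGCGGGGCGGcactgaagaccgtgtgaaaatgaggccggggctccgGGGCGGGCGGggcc
Gli3, chr13:15463473-15463722, plus strand: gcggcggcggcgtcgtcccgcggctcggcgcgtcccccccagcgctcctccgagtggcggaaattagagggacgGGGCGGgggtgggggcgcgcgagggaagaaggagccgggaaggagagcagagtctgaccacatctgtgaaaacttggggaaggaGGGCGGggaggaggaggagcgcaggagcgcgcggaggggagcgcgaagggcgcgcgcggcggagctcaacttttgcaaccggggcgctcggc
Gas1, chr13:60177536-60177785, minus strand: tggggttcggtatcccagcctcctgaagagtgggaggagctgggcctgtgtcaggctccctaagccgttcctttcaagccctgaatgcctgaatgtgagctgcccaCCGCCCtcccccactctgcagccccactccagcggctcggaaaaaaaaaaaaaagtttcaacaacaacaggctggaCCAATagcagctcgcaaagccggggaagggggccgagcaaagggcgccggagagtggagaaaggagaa

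Scube2 had 5 matches to the GC box, Gli3 had 2 and Gas1 had 1, and 6 of the 9 members with a promoter entry held at least 1. In the same 250 bases 32.7% of all 32851 RefSeq promoters hold a GC box and 33.8% hold CCAAT on either strand. The windows of Scube2 and Gli3 were 73.6 and 72.8% G or C, that of Gas1 58.8%, and the median promoter 52.4%. The letters GACCACCCA, a strong binding sequence of the GLI proteins, were in 0 of the 9 windows and in 0.225% of all promoters. Nor did any member's window hold the forkhead sequence TGTTTAC (3.17% of promoters), TAATTA (4.84%) or TATAAA (12.4%). CACTTNA, an NKX2-type sequence, was in that of Cdon alone (10.1% of promoters). These are letter matches in a short window and describe no binding.

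Smo and Gas1 were the most abundant members per length. Over all 65 libraries Smo averaged 581 ± 186 (SD, n = 65) normalised reads per kb of exon and Gas1 398 ± 244. Gli3 (121 ± 83.7), Boc (96.7 ± 83.2), Sufu (87.0 ± 43.4) and Scube2 (86.9 ± 118) followed, then Lrp2 (63.1 ± 55.5), Disp1 (55.2 ± 37.5), Gli2 (33.8 ± 26.6) and Cdon (28.5 ± 28.1). Neighbours in this order lay within 1 SD of each other, except Gas1 and Gli3. Gas1 was first in p0-1, with 726 ± 208 per kb, and Smo was first in p2, pMN and p3. The order below them changed with the cell type: Scube2 ranked 5 in p0-1 and last in p3.

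**Figure D1:**
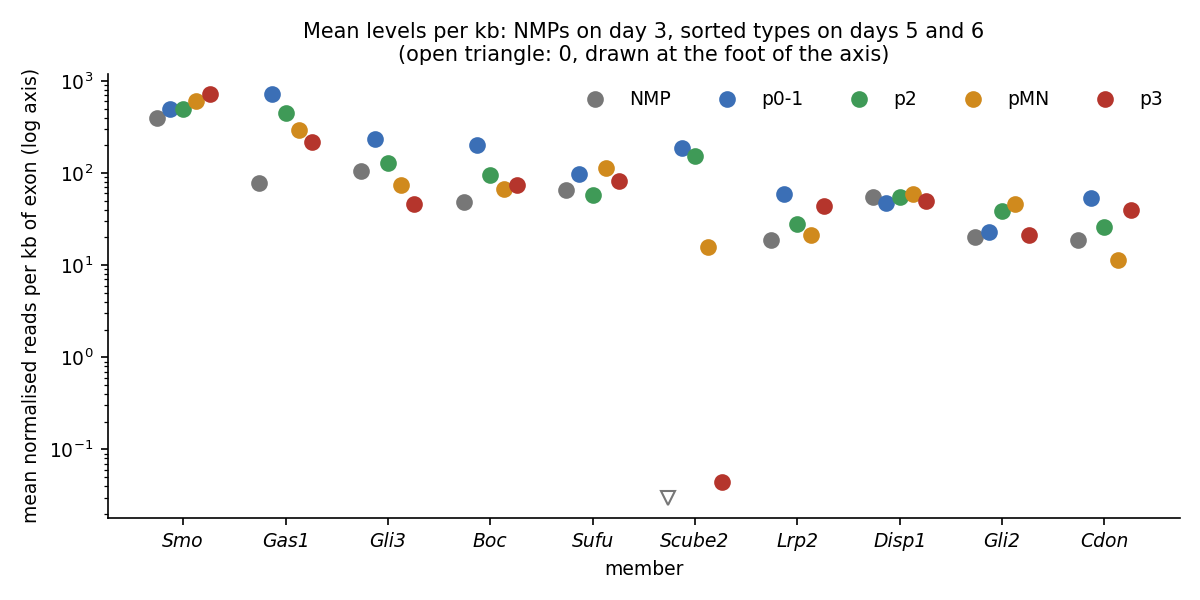
Mean level of each member in normalised reads per kb of exon (log axis) in NMPs on day 3 and in the 4 sorted types on days 5 and 6, with members in the order of their mean over all libraries. Smo stayed between 399 and 712 per kb, whereas Scube2 went from 188 in p0-1 to 0.0438 in p3 and was at 0 in NMPs.

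To ask how the reception machinery differed between the sorted types, group means of days 5 and 6 were compared. The coreceptor gene Gas1, the ligand release gene Scube2 and the repressor gene Gli3 were lower in the ventral types. A member was called at an adjusted p below 0.01 (limma on log2(normalised reads + 1), Benjamini-Hochberg over 13964 genes) and a change of over 2-fold. By that rule 3 of the 10 members differed between p3 and p0-1, against 1.43% of all genes, and 3 between pMN and p0-1, against 0.960%. Also 3 differed between p3 and p2 (1.27% of genes) and 1 between pMN and p2 (0.107%). No member was called between p3 and pMN (0.695%) or between p2 and p0-1 (0.322%), where 5 and 3 members had an unadjusted p under 0.05. EdgeR called 1 and 0 members in these comparisons, and DESeq2 1 in each, beside 782 and 632 of all genes. All called members were lower in the more ventral type. The median log2 difference of the members from p0-1 was -0.39 in p3, -1.52 in pMN and -0.83 in p2, while that of all genes was -0.07, 0.01 and -0.05.

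Gas1 encodes a membrane-anchored coreceptor from a single exon (mm10, chr13:60174405-60177535, minus strand). In p0-1 its lowest, median and highest values on days 5 and 6 were 1155, 2222 and 3182 normalised reads. In p2 they were 729, 1325 and 2410, in pMN 279, 843 and 1463, and in p3 225, 743 and 1057. Every p3 library lay below every p0-1 library, while p2 and pMN overlapped with both their neighbours. The means fell in the order p0-1 (2272 ± 650), p2 (1399 ± 516), pMN (915 ± 386) and p3 (678 ± 311). On the log2 scale p3 was lower than p0-1 by 1.88 (log2 difference -1.88, SE 0.26, adjusted p = 1.06e-06), in 11 of 11 libraries against the p0-1 median. For pMN the difference from p0-1 was -1.45 (SE 0.26, adjusted p = 2.24e-04). The step from p0-1 to p2 was not called (-0.72, adjusted p = 0.29; -0.34 on day 5 and -1.10 on day 6), nor was the step from p2 to pMN (-0.73, adjusted p = 0.247) or from pMN to p3 (-0.43, adjusted p = 0.579).

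The difference of Gas1 between p3 and p2 was -1.15 (SE 0.26, adjusted p = 0.00445) and was close to both limits of the call. It was no longer called without the 100 nM p3 replicate 1 of day 5 (-0.97), without the 500 nM p3 replicate 2 of day 5 (-1.03), without the 100 nM p3 replicate 3 of day 6 (-1.09) or without the 500 nM p3 replicate 1 of day 6 (-0.94), with adjusted p between 0.0104 and 0.042. At 100 nM, the concentration both types were sorted from, it was -1.09 with an adjusted p of 0.0713. It was not called with edgeR (adjusted p = 0.0131), with only the compared groups fitted (0.0369), or on day 5 (-1.42, adjusted p = 0.0454) or day 6 alone (-0.88, adjusted p = 0.219). Between pMN and p0-1, Gas1 was not called on day 5 alone (-1.02, adjusted p = 0.261).

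Gli3 encodes the Gli factor that acts mainly as a repressor (chr13:15463723-15730025, plus strand). Its lowest, median and highest values were 887, 1927 and 3028 normalised reads in p0-1, 250, 952 and 2013 in p2, 357, 614 and 968 in pMN, and 60.3, 322 and 774 in p3. No p3 library reached the lowest p0-1 library, and only the highest pMN library passed the lowest of p0-1. Means were 1952 ± 697 in p0-1, 1071 ± 534 in p2, 628 ± 188 in pMN and 393 ± 219 in p3. The log2 difference from p0-1 was -2.43 in p3 (SE 0.31, adjusted p = 1.63e-07) and -1.61 in pMN (SE 0.31, adjusted p = 6.3e-04), each in 11 of 11 libraries. Against p2, p3 was lower by 1.45 on the log2 scale (log2 difference -1.45, SE 0.31, adjusted p = 0.0024). Without the 500 nM p3 replicate 3 of day 6 this last difference was -1.41 with an adjusted p of 0.0116. Within 100 nM it was -1.81 (adjusted p = 0.00998), and on day 5 (-1.75, adjusted p = 0.038) or day 6 alone (-1.15, adjusted p = 0.166) it was not called. Neither was that between pMN and p0-1 on day 5 (-1.25, adjusted p = 0.233) or day 6 alone (-1.98, adjusted p = 0.0134). The steps from p0-1 to p2 (-0.98, adjusted p = 0.17), from p2 to pMN (-0.64, adjusted p = 0.452) and from pMN to p3 (-0.82, adjusted p = 0.253) were not called.

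Scube2, whose secreted product helps to release the ligand (chr7:109798691-109865679, minus strand), differed most in level among the members. All 12 p0-1 libraries of days 5 and 6 contained its transcript, with 118, 535 and 1327 normalised reads as lowest, median and highest. In p2 the values were 0, 415.5 and 1509, with 2 of 12 libraries at 0. In pMN they were 0, 2.15 and 387, and 6 of 11 libraries had at most 3 reads. In p3, 10 of 11 libraries were at 0 and the remaining library held 1.72 normalised reads. Against a floor of 3 reads per library the p3 level was at least 259-fold lower than the mean of p0-1 (670 ± 404), at least 209-fold lower than that of p2 (542 ± 487) and at least 21.5-fold lower than that of pMN (55.5 ± 116). The pMN mean was 22.3 and this last bound 8.63-fold without the 100 nM pMN replicate 2 of day 6, which held 387, and the pMN median lay below the floor. These floors cover counting error only, since the amplified reads carry no molecular identifiers.

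The model called Scube2 lower in p3 than in p0-1 (adjusted p = 3.57e-10, no overlap) and p2 (adjusted p = 1.38e-07), and lower in pMN than in p0-1 (adjusted p = 3.65e-06). Values in p3 and pMN overlapped, and that difference was not called by limma (adjusted p = 0.171) but was by edgeR (adjusted p = 0.00436) and DESeq2. Over all settings its log2 estimate ran from -17.21 to -1.29. With 10 of 11 p3 and 5 of 11 pMN libraries at 0, the size of this difference is not fixed by the data. The difference between pMN and p2 was called (log2 difference -4.65, SE 0.90, adjusted p = 0.00604) but lost with any of 10 libraries left out, with adjusted p from 0.0108 to 0.0424. These were p2 at 100 nM on day 5 replicates 1 and 3, p2 at 10 nM on day 5 replicates 1 and 3, p2 at 10 nM on day 6 replicate 3, pMN at 100 nM on days 5 and 6 replicate 3, pMN at 500 nM on day 5 replicates 2 and 3 and pMN at 500 nM on day 6 replicate 3. At 100 nM alone it was -2.11 (adjusted p = 0.734), and edgeR (adjusted p = 0.106) and array weights (0.0106) did not call it.

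**Figure D2:**
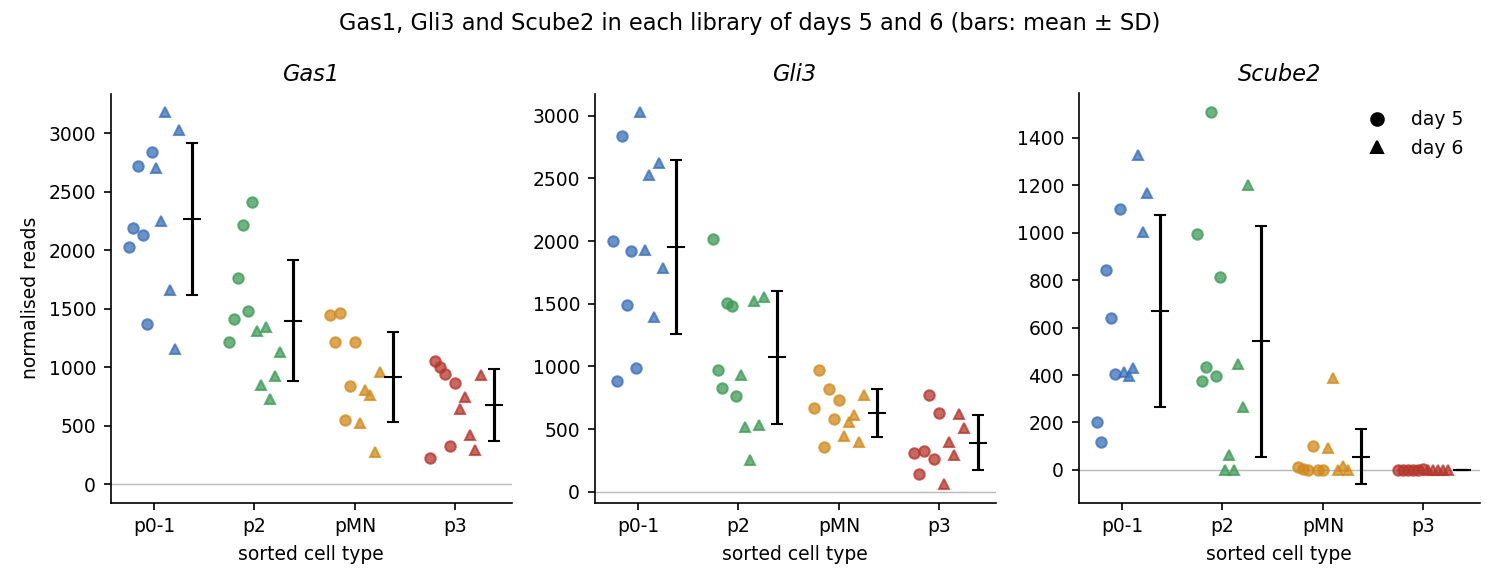
Normalised reads of Gas1, Gli3 and Scube2 in each library of day 5 (circles) and day 6 (triangles) by sorted cell type, with mean ± SD in black. The 3 genes are the members called between p3 and p0-1. Their highest p3 values (1057, 774 and 1.72) lie below their lowest p0-1 values (1155, 887 and 118). The share of all genes separated in this way was not counted.

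Markers of other cell types moved along with part of this pattern. Of the 4 floor plate genes that could be tested, 4 were called higher in p3 than in p0-1 and in p2, and 3 higher in p3 than in pMN; Foxa2, a floor plate regulator, averaged 1166 ± 904 in p3 and 13.3 ± 39.8 in p0-1. Between pMN and p0-1, 0 of the 4 were called (1 at an unadjusted p under 0.05), and Lmx1b was at 0 in all 11 pMN libraries. The part of floor plate RNA in the values of Gas1, Gli3 and Scube2 was not tested in p3 or in pMN. The summed level of 6 neuronal genes ranged from 231 to 2823 in p0-1, 854 to 5812 in p2, 1037 to 6105 in pMN and 1201 to 5314 in p3. Of the 6, only Elavl4, an RNA-binding protein of neurons, was called between pMN and p0-1 (log2 difference 2.70) and between p3 and p0-1 (2.35). The median difference of the 6 from p0-1 was 0.37 in pMN, 1.07 in p3 and 1.60 in p2, where 0 were called. Between p3 and pMN 1 was called higher, and the median was -0.60. Dcx, a neuronal microtubule protein, was called lower in p3 than in p2 (-5.46). The part of neuronal RNA in the member values was not tested. Median numbers of detected genes were 12632 in p0-1, 12638 in p2, 12991 in pMN and 12474 in p3.

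Receptors and feedback targets went the other way. Of Ptch1, Hhip and Gli1, 2 were called higher in p3 than in p0-1, 3 in pMN and 3 in p2. The receptor gene Ptch1 averaged 996 ± 559 normalised reads in p0-1, 2821 ± 1680 in p2, 4574 ± 823 in pMN and 4221 ± 869 in p3. Its log2 difference from p0-1 was 2.23 in p3 (adjusted p = 9.75e-12), 2.39 in pMN (adjusted p = 1.01e-12) and 1.51 in p2 (adjusted p = 6.11e-07). Gli1, the Gli gene most responsive to the signal, was higher by 4.06, 4.86 and 3.71 in the same order. None of these 3 was called between p3 and pMN or between p3 and p2.

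Smo, whose product is the target of SAG (chr6:29735497-29761366, plus strand), varied least within groups, with a standard deviation of 0.39 on the log2 scale. It ranged from 1038 to 2822 normalised reads in p0-1, 1167 to 3057 in p2, 1476 to 3606 in pMN and 1982 to 3890 in p3 on days 5 and 6, so all 4 types overlapped. Means were 1965 ± 578, 1977 ± 640, 2401 ± 568 and 2833 ± 638 in that order. The difference of p3 from p0-1 was 0.56 on the log2 scale (95% interval 0.22 to 0.89, adjusted p = 0.0431) and from p2 0.55 (0.22 to 0.88, adjusted p = 0.0446), under the fold limit and above the p limit of a call. All 11 p3 libraries lay above the p0-1 median.

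Sufu, the cytoplasmic inhibitor of the Gli proteins (chr19:46396896-46488804, plus strand), was called in none of the 15 comparisons made here. Its means on days 5 and 6 were 438 ± 277 in p0-1, 262 ± 95.7 in p2, 513 ± 204 in pMN and 372 ± 180 in p3. Between p3 and p0-1 the 95% interval of the log2 difference ran from -0.68 to 1.16. Of 21 tested genes that regulate Smoothened or Gli activity, such as Kif7, Gpr161 and the protein kinase A subunits, 0 were called in any of the 6 cell type comparisons (at most 2 with an unadjusted p under 0.05 in each).

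Boc and Cdon, related coreceptors of the immunoglobulin family, were called by limma in no cell type comparison of days 5 and 6. Boc (chr16:44485045-44558870, minus strand) had a lowest, median and highest value of 142, 747 and 1806 normalised reads in p0-1, 199, 382 and 840 in p2, 62.6, 287 and 803 in pMN, and 0, 308 and 675 in p3. Its p0-1 mean of 894 ± 554 was the highest of the 4 types, with log2 differences of -1.79 for p3 (95% interval -3.04 to -0.55, adjusted p = 0.0982) and -1.64 for pMN (-2.89 to -0.40, adjusted p = 0.21). The 3 libraries of p0-1 without SAG on day 6 held 1806, 1715 and 1543 normalised reads of Boc and were the highest of all 65. At 10 nM on the same day the p0-1 libraries held 752, 402 and 891, so these groups did not overlap, but over both days the difference between 10 and 0 nM was -0.71 (adjusted p = 1).

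Cdon (chr9:35452076-35507652, plus strand) had another order of means: 386 ± 276 in p0-1, 290 ± 216 in p3, 187 ± 135 in p2 and 83.0 ± 88.3 in pMN. In pMN 2 of 11 libraries were at 0 and the highest held 253, which lay within the range of the other types. The difference between pMN and p0-1 was -3.00 on the log2 scale (95% interval -4.73 to -1.28, adjusted p = 0.0506) and that between p3 and pMN was 2.73 (0.96 to 4.5, adjusted p = 0.13). DESeq2 called Boc (-1.66, adjusted p = 0.00275) and Cdon (-2.60, adjusted p = 0.00143) between pMN and p0-1, and no other setting did so in these comparisons.

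The mean of Lrp2 was likewise higher in p0-1 (923 ± 484) and p3 (682 ± 357) than in p2 (434 ± 351) and pMN (332 ± 185). All 4 ranges overlapped, and limma called none of its cell type differences. The largest were between p2 and p0-1 (-1.73, SE 0.42, adjusted p = 0.0317) and between pMN and p0-1 (-1.59, SE 0.44, adjusted p = 0.0383). DESeq2 (adjusted p = 0.0046 and 0.00137) and array weights (0.00776 and 0.00744) called both. Without the 100 nM p2 replicate 3 of day 6 the former was called (-2.06, adjusted p = 0.00175). With the 6 libraries with the fewest detected genes left out, a setting chosen after seeing the data, Lrp2 was called between p2 and p0-1 (-1.99, adjusted p = 0.00293), pMN and p0-1 (-1.59, adjusted p = 0.0051) and p3 and p2 (1.89, adjusted p = 0.00423).

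The activator gene Gli2 (chr1:118834061-119053619, minus strand) and the ligand release gene Disp1 (chr1:183086264-183221529, minus strand) showed no called difference on days 5 and 6. Gli2 averaged 152 ± 130 in p0-1, 263 ± 155 in p2, 310 ± 245 in pMN and 141 ± 106 in p3. Its interval for pMN against p0-1 ran from -0.12 to 2.20 on the log2 scale. Disp1 averaged between 244 and 310 in the 4 types.

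**Figure D3:**
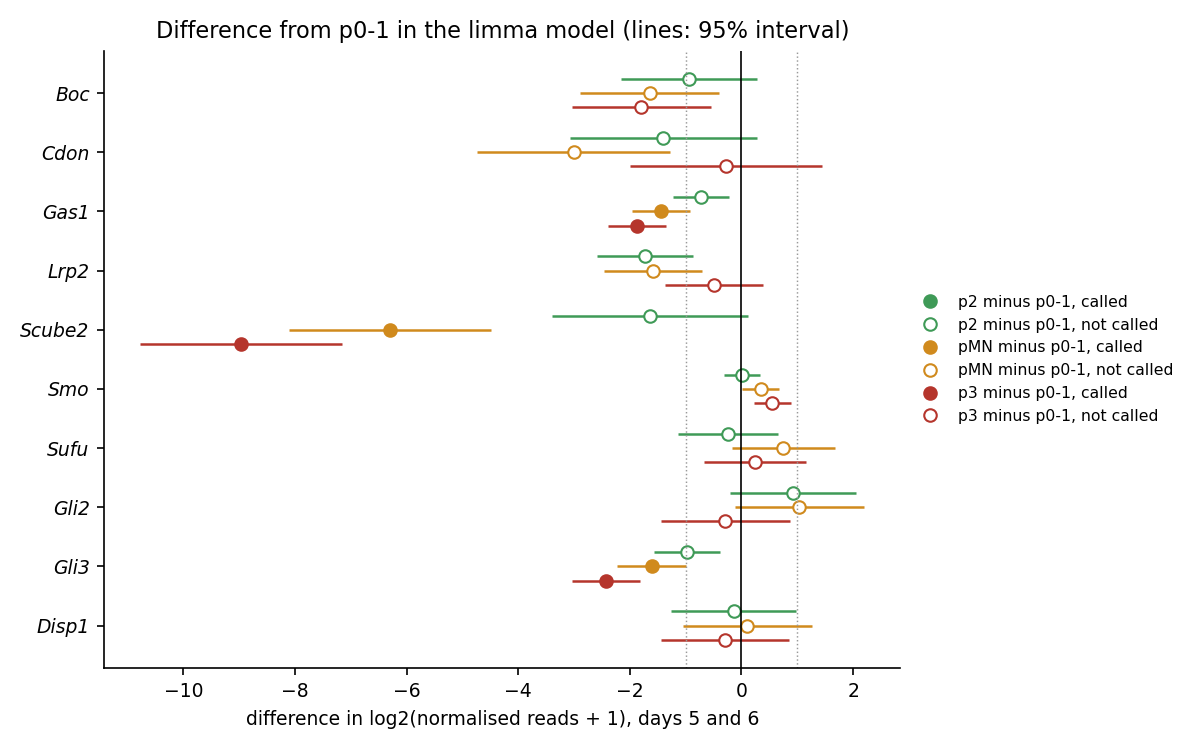
Log2 difference of each member from p0-1 in p2, pMN and p3 on days 5 and 6, with its 95% interval; filled points are called and dotted lines mark 2-fold. Only Gas1, Scube2 and Gli3 are called, in pMN and in p3, and the interval of Smo is the narrowest.

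To follow the members in time, means over the groups of consecutive days were compared. Between days 3 and 4, 3 members rose, Lrp2, Gas1 and Scube2, against 3.49% of all genes called. In that step retinoic acid and, except at 0 nM, SAG took the place of bFGF and the other additives given until day 3. The parts of these changes in medium cannot be told apart. The median of all genes moved by -0.40 in this comparison and that of the members by 0.32. Over the same step 3 of 3 NMP genes and 2 of 2 tested pluripotency genes were called lower, with medians of -6.81 and -7.17. The median number of detected genes went from 15429 to 13174. Their part in the member values was not tested. A fit with the number of detected genes as a covariate cannot fully separate that number from the day. In such a fit Gas1 (1.39, adjusted p = 0.0954) and Lrp2 (3.21, adjusted p = 0.0114) were no longer called. With edgeR neither were Lrp2 (adjusted p = 0.011) and Scube2 (adjusted p = 1). From day 4 to day 5 only Lrp2 was called, against 4.30% of genes, and from day 5 to day 6 again only Lrp2, against 0.852%.

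Lrp2 encodes megalin, a very large endocytic receptor (chr2:69424335-69586029, minus strand, 79 exons). The 3 NMP libraries held 377, 339 and 147 normalised reads. On day 4 it reached 797 to 3480, and no day 4 library overlapped with NMPs. The p0-1 libraries of day 4 lay between 2227 and 3480, p3 between 2321 and 2678, pMN between 1256 and 2389 and p2 between 797 and 1773. Means were 288 ± 123 (SD, n = 3) on day 3, 2185 ± 702 (SD, n = 16) on day 4, 753 ± 386 (SD, n = 24) on day 5 and 426 ± 399 (SD, n = 22) on day 6. The log2 differences were 2.91 from day 3 to 4 (SE 0.66, adjusted p = 0.00237), -1.63 from day 4 to 5 (SE 0.35, adjusted p = 8.34e-04) and -1.33 from day 5 to 6 (SE 0.31, adjusted p = 0.00617). All 24 day 5 libraries lay below the day 4 median. By day 6 p2 ranged from 22.7 to 481 and p0-1 from 301 to 1642.

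The rise of Lrp2 rested on 3 NMP libraries. It was not called without NMP replicate 2 (3.08, adjusted p = 0.0143) or without NMP replicate 3 (2.48, adjusted p = 0.0629). Its fall from day 5 to day 6 lay just inside the threshold and was lost without any of 12 libraries (-1.30 to -1.20, adjusted p from 0.0105 to 0.0191): on day 5 replicate 3 of p2 at 100 nM, of pMN at 100 nM and of p2 at 10 nM and replicate 2 of p0-1 at 10 nM; on day 6 replicate 1 of p2 at 100 and at 10 nM, of pMN at 100 and 500 nM, of p0-1 at 10 nM and of p3 at 500 nM, replicate 2 of p0-1 at 0 nM and replicate 2 of p3 at 100 nM. The fall from day 4 to day 5 was called with each library left out in turn. Of the 6 neuronal genes, 3 were called higher and 1 lower on day 5 than on day 4, and 2 higher on day 6 than on day 5, with a summed level of 222 to 1277 on day 4, 231 to 2594 on day 5 and 1541 to 6105 on day 6. Their part in the fall of Lrp2 was not tested.

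**Figure D4:**
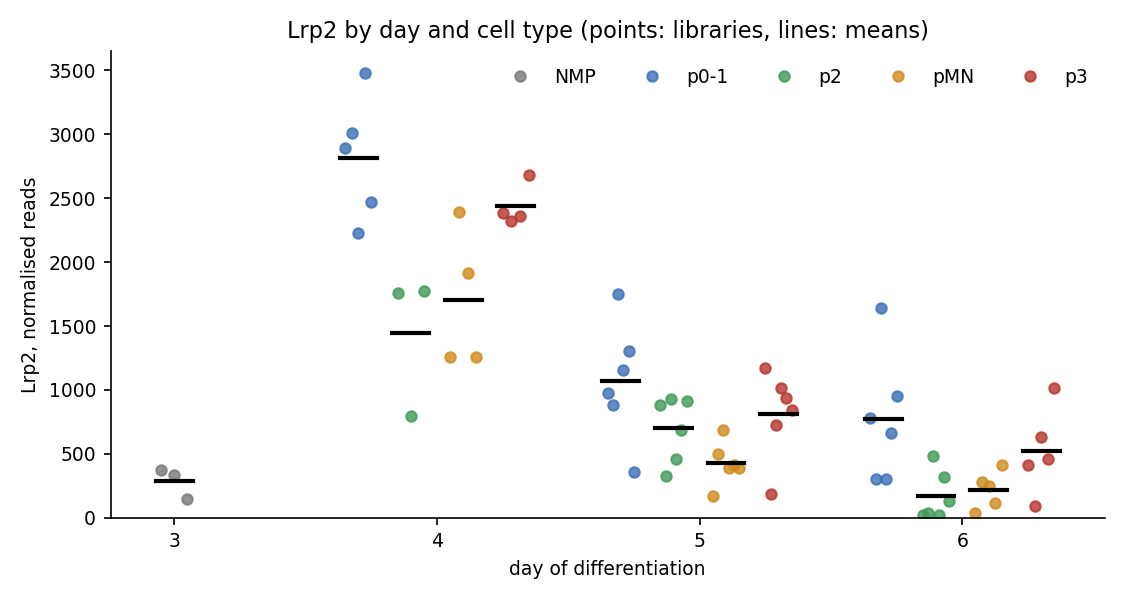
Normalised reads of Lrp2 in each library by day, with cell types in colour and their means as black lines. All 16 day 4 libraries lie above the 3 NMP libraries, and the means of each type fall from day 4 to day 5 and again to day 6.

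Gas1 held 194, 183 and 362 normalised reads in NMPs and 1170 ± 657 (SD, n = 16) on day 4. Only 2 day 4 libraries, p3 at 100 nM (22.0) and replicate 3 of pMN at 100 nM (290), did not lie above all NMP libraries. The log2 difference was 1.60 (SE 0.39, adjusted p = 0.00527). It was lost without NMP replicate 1 (1.46, adjusted p = 0.0671), NMP replicate 2 (1.42, adjusted p = 0.0887) or the only p2 library at 10 nM on day 4 (1.38, adjusted p = 0.0201). A further difference from day 4 to day 5 of 0.82 (adjusted p = 0.00498) did not reach 2-fold. It passed the fold limit without that p2 library (1.03, adjusted p = 3.17e-04) and was 0.11 (adjusted p = 0.832) without the p3 library at 100 nM.

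Scube2 was at 0 in all 3 NMP libraries. On day 4 it was above 0 in all 5 p0-1 and all 3 p2 libraries, where it averaged 680 ± 463 (SD, n = 5) and 464 ± 284 (SD, n = 3), at least 205-fold and 140-fold above the floor of 3 reads in NMPs. In the 4 pMN libraries it was at 0, 0, 0 and 79.8, and in the 4 p3 libraries at 0, 0, 74.5 and 28.2. So the low level of the ventral types was already present on day 4, in the sense that p0-1 did not overlap with p3 or pMN. The overall log2 difference from day 3 was 5.33 (SE 1.36, adjusted p = 0.00819) and was lost without any of 11 libraries (adjusted p from 0.0102 to 0.0598), each of the 3 NMP libraries among them. The others, all of day 4, were replicate 3 of p0-1 at 0 and 10 nM, of p2 at 10 nM, of pMN at 500 nM and of p3 at 500 nM, replicate 2 of p3 at 500 nM, and replicates 2 and 3 of p2 at 100 nM.

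Limma called no change with time in the other members. DESeq2 called Cdon higher on day 5 than on day 4 (2.18, adjusted p = 0.0012), beside 2321 of all genes. In limma the adjusted p of Cdon was 0.0703, and 0.411 without the p3 library at 100 nM on day 4. Gli3 stood at 573, 661 and 1454 in NMPs, so its level in p3 on days 5 and 6 lay mostly below that of NMPs and its level in p0-1 mostly above. Of the target genes Ptch1, Hhip and Gli1, 2 rose from day 3 to day 4, Ptch1 by 3.43 and Gli1 by 2.82 on the log2 scale. Arrb1, a beta-arrestin, was the only one of the 21 regulators called between days (2.47 from day 4 to day 5, adjusted p = 1.7e-05). The adaptor gene Amn, whose product forms a receptor with the megalin partner cubilin, fell by 5.13 from day 3 to day 4 (adjusted p = 0.00417).

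To ask whether p3 and p0-1 already differed on day 4, their 4 and 5 libraries were compared. Here 4 members were called, all lower in p3, against 6.02% of all genes, and the median of all genes was itself -0.37. They were Gas1 (-3.60, adjusted p = 3.45e-08), Scube2 (-7.09, adjusted p = 0.00111), Gli2 (-4.22, adjusted p = 0.00268) and Disp1 (-4.33, adjusted p = 0.00191). The group mean of p3 at 100 nM came from the single library with 9718 detected genes, which held 22.0 normalised reads of Gas1 and 0 of Scube2, Gli2, Disp1 and Cdon. In the 3 p3 libraries at 500 nM, Gas1 stood at 788, 701 and 1267, Gli2 at 11.7, 166 and 271 and Disp1 at 287, 187 and 211. In p0-1 they ranged from 1184 to 2656, 119 to 256 and 134 to 629, so 1 of the 3 values of Gas1, 2 of Gli2 and 3 of Disp1 lay above the lowest p0-1 library.

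Both SAG concentrations had equal weight in the p3 mean, so that library counted as much as the 3 at 500 nM together. Without it the p3 side was 500 nM alone, and 0 of the 10 members and 14 of all genes were called. Gas1 then differed by -0.96 (adjusted p = 0.819), Gli2 by -1.03 (adjusted p = 1), Disp1 by -0.42 (adjusted p = 1) and Scube2 by -5.24 (adjusted p = 0.234). Other single libraries ended calls as well: replicate 3 of p0-1 at 0 nM for Scube2 (-6.19, adjusted p = 0.0171), Gli2 (-4.26, adjusted p = 0.0102) and Disp1 (-3.92, adjusted p = 0.0193), replicate 2 of p0-1 at 0 nM for Gli2 (-4.17, adjusted p = 0.0123) and replicate 1 of p3 at 500 nM for Gli2 (-3.54, adjusted p = 0.0138). Cdon, at -5.42 (adjusted p = 0.0115), was called without replicate 1 of p0-1 at 10 nM (-5.96, adjusted p = 0.00633) or replicate 2 of p3 at 500 nM (-6.37, adjusted p = 0.00215). Without the p3 library at 100 nM, where Cdon was at 0, its adjusted p was 0.735. Boc lay between 0 and 103 in the 4 p3 libraries and between 209 and 521 in the 5 of p0-1, without overlap, at -3.07 (adjusted p = 0.0623). With all libraries kept, DESeq2 and array weights called both Boc (adjusted p = 0.00489 and 0.00226) and Cdon (3.01e-04 and 7.48e-04). DESeq2 called 3135 of all genes in this comparison. Gli3 differed by -0.17 (95% interval -1.25 to 0.91, adjusted p = 0.922), or by -1.30 (adjusted p = 0.682) without the library at 100 nM, and stood at 2242 in the library at 100 nM and at 406, 1027 and 238 in those at 500 nM.

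The change of the p3 against p0-1 difference from day 4 to days 5 and 6 was tested as an interaction. It was called for 0 of the 10 members by limma (2 by edgeR, 5 by DESeq2 and 4 with array weights). With replicate number as a block in limma, 2 were called, Gas1 and Gli2. Of all genes, limma called 3.73% and DESeq2 called 2567 for this interaction. The single p3 library at 100 nM on day 4 carried it. Without that library, which left only 500 nM for p3 on day 4, 0 members and 1 of all genes were called. The interaction was then 0.73 for Gli2, 0.12 for Disp1 and -0.92 for Gas1, each with an adjusted p of 1. Gli3 came nearest, with -2.26 (SE 0.62, adjusted p = 0.0148) from all libraries. Its interaction passed the threshold without the 500 nM p3 replicate 3 of day 4 (-2.50, adjusted p = 0.00683), replicate 2 of p0-1 at 0 nM on day 5 (-2.38, adjusted p = 0.00896) or replicate 2 of p3 at 100 nM on day 6 (-2.39, adjusted p = 0.00686), and was -1.12 (adjusted p = 1) without p3 at 100 nM on day 4. Without the 100 nM p3 replicate 2 of day 6, Gli2 (4.27, adjusted p = 0.00743) and Disp1 (4.60, adjusted p = 4.67e-04) passed too, as did Gas1 without the 100 nM p3 replicate 1 of day 5 (1.90, adjusted p = 0.00718).

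**Figure D5:**
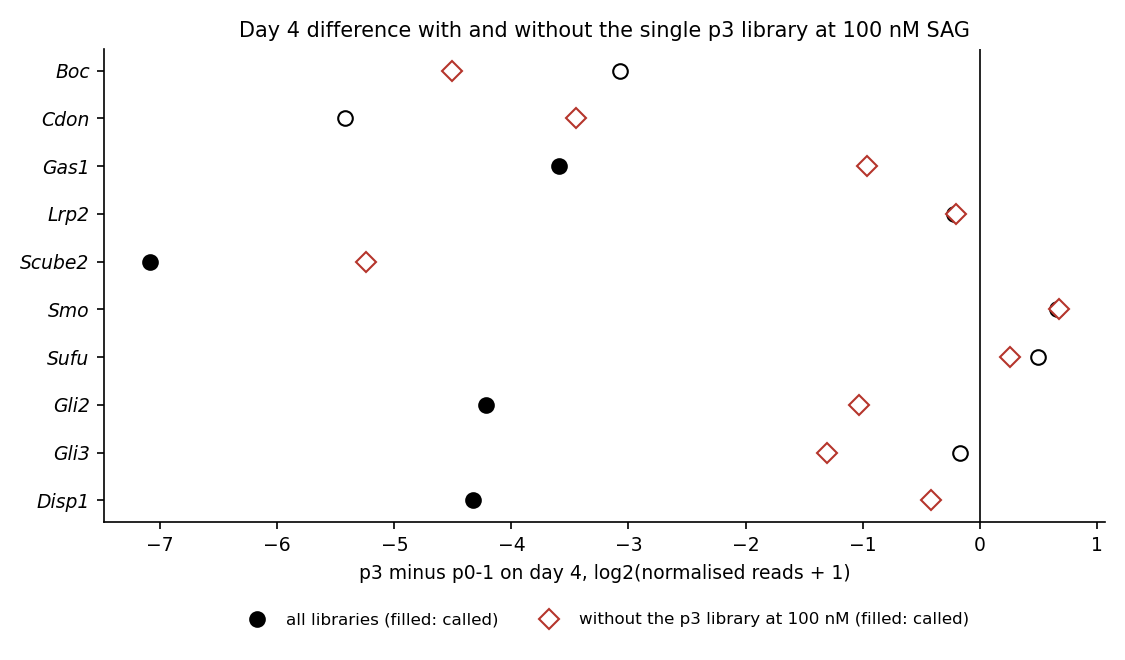
Log2 difference between p3 and p0-1 on day 4 for each member. Circles are from all 9 libraries. Diamonds are without the only p3 library at 100 nM, so p3 is represented by 500 nM alone. Filled symbols are called. The 4 called members, Gas1, Scube2, Gli2 and Disp1, are all uncalled without that library.

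SAG concentration was compared within a cell type over days 5 and 6, where the sorted identity was held constant. No member was called in p0-1 between 10 and 0 nM (0.0143% of genes called), in p2 between 100 and 10 nM (0.0358%), in pMN between 500 and 100 nM (0%, with 657 genes at an unadjusted p under 0.05, 0 called by edgeR and 442 by DESeq2) or in p3 between 500 and 100 nM (0.0286%). Members with an unadjusted p under 0.05 numbered 0, 1, 2 and 1. The other tools also called no member, except DESeq2 with Scube2 in p3, where 1 of the 11 libraries held any of its reads. In p2 Scube2 stood at 994, 375, 434, 0, 62.9 and 0 at 100 nM and at 1509, 397, 813, 447, 266 and 1201 at 10 nM (days 5 then 6), a difference of -3.78 on the log2 scale (95% interval -6.26 to -1.30, adjusted p = 0.325). The 3 low values were the 3 libraries at 100 nM on day 6, of which 2 were among the 6 libraries with the fewest detected genes. Gli3 in p3 stood at 309, 144, 322, 60.3, 399 and 290 at 100 nM and at 774, 265, 631, 623 and 506 at 500 nM, a difference of 1.30 (0.40 to 2.20, adjusted p = 0.233). In pMN Cdon (2.59, 95% interval 0.08 to 5.1) and Disp1 (1.73, 0.05 to 3.41) were the members with an unadjusted p under 0.05, each with an adjusted p of 1.

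Among the remaining pathway genes, the ligand gene Shh was called higher in p3 than in each other type. It averaged 365 ± 416 in p3 and 7.94 ± 12.2 in pMN, where 6 of 11 libraries were at 0, and was the only called gene of the 5 tested in the list of ligands and their release. Gpc3, a glypican that binds hedgehog ligands, was the only called gene of 5 tested glypicans and was higher in p3 than in pMN (1.61), p2 (1.97) and p0-1 (1.44 on the log2 scale). Dab2, an adaptor of megalin, was higher in p3 than in p0-1 by 4.56 (adjusted p = 0.00692), 1 of 3 tested Lrp2 partners.

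Genes whose group means followed those of a called member most closely were sought over the 25 groups among 10173 genes with a mean of at least 100, as a description only, since all values share the same libraries. Nearest to Gas1 were Cand1 (Pearson's r = 0.894), Irx3 (0.891) and E2f3 (0.883); without p3 at 100 nM on day 4 these were 0.744, 0.799 and 0.655. Irx3 encodes a homeodomain factor of progenitors dorsal to pMN. Lrp2 was followed by Stra6, the membrane receptor for retinol-binding protein (0.886), Ptn (0.863) and 1810058I24Rik (0.849), and these hardly moved without that group (0.878, 0.860 and 0.837). For Scube2 they were Edaradd (0.856), Metap2 (0.787) and Cbx1 (0.775), and for Gli3 Nav1 (0.808) and Ireb2 (0.733). The nearest to Gli2 (Usb1, 0.915; Suclg2, 0.906; Pdf, 0.887) and to Disp1 (Suclg2, 0.938; Limd2, 0.929) shared their low value in the only 100 nM p3 library of day 4, and fell without it to between 0.557 and 0.765.

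Among the members themselves, Gli2 and Disp1 had the highest correlation over the 25 group means (r = 0.87), which was 0.59 without that group. Gas1 and Scube2 had r = 0.67 (0.79 without it) and Gas1 and Gli3 r = 0.14 (0.70 without it). The most negative pair was Boc and Smo (r = -0.62).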

How the data were processed

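RNA from fixed, sorted cells was amplified as full-length cDNA and sequenced. The authors aligned reads with STAR (nf-core rnaseq) to mm10 with spike-in sequences, and counted reads per gene with featureCounts, ignoring duplicates, over a refGene annotation, which lowers short and abundant genes most. They removed libraries that failed quality criteria. Strand use in counting is not given in the sources used here, but no member's exons overlapped another gene's in the annotation. The deposited values are a gene-level signal, namely read counts divided by 1 size factor per library. The smallest steps were 0.717 to 1.359, and 100.0% of the 834400 values above 0 were whole multiples of them (tolerance 0.001 reads), so reads could be recovered. The deposited annotation, which holds other values (exon starts and ends), gave positions and lengths.

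Groups came from the labels. Members and lists were chosen with earlier results of these data known. Differences were tested with limma 3.58.1 (R 4.3.3) on log2(value + 1), over 13964 genes with a mean of at least 10, with 1 mean per group, an intensity trend and 65 libraries. This scale understates changes of low genes. Calls needed a Benjamini-Hochberg adjusted p below 0.01 and over 2-fold, as in the study's accessibility analysis, and adjusted p-values come from this model unless another tool is named. The fit was tested on simulated data. Libraries counted as showing a direction lay beyond the median of the other group in that direction. Named genes were all 10 members, at most 3 called genes per pathway list, direction and comparison, and the 3 genes most like each called member; a few genes that this rule or the lists would add are not reported here, and counts of the floor plate and target genes cover those named. Alternatives were pseudocount, filter, scaling, edgeR 4.0.16, DESeq2 1.42.0, array weights, subsets of libraries and a replicate block. The spike-ins and the sequence of Boc's promoter were not used here.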

Additional observations from a re-analysis of the deposited data

How the results depend on the processing

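Gas1, Scube2 and Gli3 were called lower in p3 than in p0-1 under all 36 settings tried, and Lrp2 lower on day 5 than on day 4 under all 51. For other comparisons the number of members called moved as follows. With edgeR it was 1 for p3 against pMN, 0 for pMN against p2, 1 for day 4 against 3, 0 for day 6 against 5, 2 for p3 against p0-1 on day 4 and 2 for the interaction. With DESeq2 it was 1 for p3 against pMN, 6 for pMN against p0-1, 1 for p2 against p0-1, 2 for day 5 against 4, 1 for SAG in p3 and 5 for the interaction. In the same order DESeq2 called 782, 749, 632, 2321, 665 and 2567 of all genes. Fitting only the groups compared gave 1 for p3 against p2, 0 for pMN against p2, 1 for day 4 against 3, 0 for day 6 against 5 and 2 on day 4. Day 5 alone gave 1 for p3 against p2 and 1 for pMN against p0-1; day 6 alone gave 0 for p3 against p2, 0 for pMN against p2 and 1 for pMN against p0-1. Array weights gave 0 for pMN against p2, 1 for p2 against p0-1 and 4 for the interaction. The same SAG concentration only gave 0 for pMN against p2. Chosen after seeing the data, leaving out the 6 libraries with the fewest genes gave 1 for p2 against p0-1 and 1 on day 4, and genes detected as a covariate gave 1 for day 4 against 3 and 1 on day 4. No filter gave 0 for day 6 against 5. A pseudocount of 10 and quantile normalisation each gave 2 on day 4. The causes were not tested, and the subsets also held fewer samples.

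With 1 library left out, the count ranged from 0 to 3 for day 4 against 3, 1 to 2 for day 5 against 4, 0 to 1 for day 6 against 5, 0 to 1 for p2 against p0-1, 2 to 3 for p3 against p2, 0 to 1 for pMN against p2, 0 to 5 for day 4 and 0 to 3 for the interaction; it stayed at 3 for p3 and for pMN against p0-1 and at 0 for p3 against pMN and for SAG. A lone library left in a group was taken to vary like the other groups. Over all settings adjusted p for p3 against p2 ran from 6.53e-04 to 0.219 for Gas1 and 1.85e-05 to 0.166 for Gli3, that for pMN against p2 from 8.47e-05 to 0.734 for Scube2, that for p2 against p0-1 from 0.00175 to 1 for Lrp2, and those from day 3 to 4 reached 0.0954 for Gas1, 0.0629 for Lrp2 and 1 for Scube2.

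A fit with a replicate block gave 2 called members for the interaction, Gas1 (1.81, adjusted p = 0.00995) and Gli2 (4.16, adjusted p = 0.00811), and moved no other count of members by over 1.5 times. Same-numbered libraries of a day had deviations correlated between -0.043 and 0.107 (median 0.033), other pairs a median of -0.019, and 54 of 60 libraries were most like their own number, which is a hint from the data; the labels do not say that a number marks a shared differentiation or dish.

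Counts over all genes moved more: 199 between p3 and p0-1 (73 on the lowest setting, 887 with DESeq2), 178 between p3 and p2 (32 to 986), 134 between pMN and p0-1 (52 to 749), 97 between p3 and pMN (34 to 782), 45 between p2 and p0-1 (3 to 632), 15 between pMN and p2 (2 to 587), 488 from day 3 to 4 (270 to 1656), 601 from day 4 to 5 (339 to 2321), 119 from day 5 to 6 (78 to 899), 840 on day 4 (14 to 3135) and 521 for the interaction (1 to 2567). Of 5180 pairs of member and setting, 207 changed sign while uncalled both times and none changed sign while called. Libraries held 7615114 reads or more, but these were amplified reads without molecular identifiers. The paper describes the RNA as of low quality and limited in amount, so read depth does not bound the error of a value. In p3 at 100 nM on day 5, for instance, Boc held 458, 0 and 422 reads.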

Other observations

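The balance of the repressor gene Gli3 and the activator gene Gli2 was looked at after their values were seen, as the log2 ratio of normalised reads per kb with a pseudocount of 1, and was given no test. On days 5 and 6 its mean ± SD was 3.80 ± 1.44 in p0-1 (n = 12), 1.90 ± 1.50 in p2 (n = 12), 1.10 ± 1.47 in pMN (n = 11) and 1.63 ± 2.24 in p3 (n = 11). Gli3 exceeded Gli2 per length in 12 of 12 libraries of p0-1 and of p2, and in 9 of 11 of pMN and of p3. In p3 the ratio ran from -0.68 to 7.37, and without the highest library (100 nM p3 replicate 2 of day 6, with 1 read of Gli2) its mean was 1.06 ± 1.24 (SD, n = 10). NMPs stood at 2.35 ± 0.92 (SD, n = 3). On day 4 it was 2.25 ± 1.17 in p0-1 (n = 5), 0.60 ± 0.60 in p2 (n = 3), 0.75 ± 1.33 in pMN (n = 4) and 4.31 ± 4.82 in p3 (n = 4), where the library at 100 nM, with Gli2 at 0, stood at 10.8.

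Within groups, Cdon and Scube2 spread most, with standard deviations of 2.07 and 2.06 on the log2 scale. Lrp2 (1.08) spread more than 81% of the genes within 2-fold of its mean level, and Smo (0.39) more than 27%.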
